A study of Homo sapiens with 2 samples.

Results

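Chromatin remodeller genes are described here in a map of JARID2 binding in MDA-MB-231 cells, an established line from a human triple-negative breast tumour. JARID2 assists the Polycomb complex PRC2, which methylates histone H3 and keeps genes silent. The labels name 1 JARID2 ChIP library, precipitated with a polyclonal antibody from Novus Biologicals, and 1 library of input DNA made without an antibody, both from the same untreated line. The ChIP library is represented by a deposited list of 67071 annotated peaks in hg19 coordinates, and no file of the input library was analysed here. The members are 45 genes fixed by symbol, from the SWI/SNF, ISWI, CHD and INO80 families and related SNF2-like ATPases. A peak belongs to a member when the authors' list names it as the nearest gene, and 109 peaks at 35 of the 45 genes met this rule. Each fold enrichment (ChIP over the caller's background), tag count and false discovery rate (FDR) was taken as the authors deposited it. With 1 ChIP library there is no replicate, so no difference has a replicate check and no test between groups was made. The depth of the library is unknown, and the 109 peaks held 1623 of the 1000395 tags in all peaks.

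Remodellers use the energy of ATP to slide, evict or exchange nucleosomes. SWI/SNF complexes (BAF and PBAF) open chromatin and oppose Polycomb repression in flies and mammals. ISWI complexes space nucleosomes, CHD proteins read modified histone tails, and INO80-family complexes exchange histone variants. Subunits of SWI/SNF, among them ARID1A and SMARCB1, are frequently lost in human cancers.

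HLTF carried the peak of largest fold enrichment of any remodeller gene examined, and its promoter is shown first because of that. The other promoters are those of SMARCE1, which had the widest promoter peak of the 45 genes, of CHD4, a member with no peak, and of HDAC2 and BCL7C, the remodeller subunits outside the 45 with the promoter peaks of largest fold. Each run is the RefSeq promoter of GRCh38.p14, 250 bases before to 50 after the start, written 5′ to 3′ on the gene's strand. Capitals mark matches, on either strand, to the E2F motif GCGGGAA, the E-box CACGTG or the CCAAT box CCAAT. The peaks are on hg19, so whether each RefSeq start is the start under the peak was not checked.
HLTF (chr3:149086484-149086783, minus strand): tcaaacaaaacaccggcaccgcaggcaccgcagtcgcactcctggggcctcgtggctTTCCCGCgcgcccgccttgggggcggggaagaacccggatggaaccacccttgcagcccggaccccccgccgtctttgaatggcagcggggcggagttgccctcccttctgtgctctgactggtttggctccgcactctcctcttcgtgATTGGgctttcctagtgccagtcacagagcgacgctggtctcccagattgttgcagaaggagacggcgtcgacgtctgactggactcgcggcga
SMARCE1 (chr17:40647769-40648068, minus strand): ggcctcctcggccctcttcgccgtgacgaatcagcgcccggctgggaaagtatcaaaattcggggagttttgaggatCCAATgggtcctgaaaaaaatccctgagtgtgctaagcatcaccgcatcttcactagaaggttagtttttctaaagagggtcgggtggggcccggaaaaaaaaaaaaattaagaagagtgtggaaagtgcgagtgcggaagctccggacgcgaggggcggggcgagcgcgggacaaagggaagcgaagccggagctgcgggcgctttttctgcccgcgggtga
CHD4 (chr12:6606402-6606701, minus strand): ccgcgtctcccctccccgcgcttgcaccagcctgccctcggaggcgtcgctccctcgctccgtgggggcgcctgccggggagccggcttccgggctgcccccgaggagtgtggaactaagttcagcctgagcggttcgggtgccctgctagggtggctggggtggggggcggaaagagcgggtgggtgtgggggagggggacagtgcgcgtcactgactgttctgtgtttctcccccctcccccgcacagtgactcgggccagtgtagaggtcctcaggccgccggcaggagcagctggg
HDAC2 (chr6:113971099-113971398, minus strand): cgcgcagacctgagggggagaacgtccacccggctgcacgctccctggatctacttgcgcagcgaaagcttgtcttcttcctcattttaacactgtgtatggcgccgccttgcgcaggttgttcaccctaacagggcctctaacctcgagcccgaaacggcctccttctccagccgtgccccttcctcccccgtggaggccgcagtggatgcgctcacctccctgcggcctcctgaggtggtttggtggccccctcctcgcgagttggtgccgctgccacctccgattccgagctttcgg
BCL7C (chr16:30894028-30894327, minus strand): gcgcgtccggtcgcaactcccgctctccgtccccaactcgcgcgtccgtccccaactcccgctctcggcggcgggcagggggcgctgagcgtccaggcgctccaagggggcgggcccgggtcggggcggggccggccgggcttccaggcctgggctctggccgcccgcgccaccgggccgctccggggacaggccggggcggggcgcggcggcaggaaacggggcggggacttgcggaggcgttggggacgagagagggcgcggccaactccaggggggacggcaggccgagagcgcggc

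The HLTF run holds 1 E2F match and 1 CCAAT match that do not overlap, SMARCE1 holds 1 CCAAT match, and the other 3 runs hold none of the 3 motifs. Over all 35116 RefSeq promoters, 6.55% hold the E2F letters, 7.26% the E-box and 34.6% the CCAAT box. RefSeq promoters were available for 35 of the 45 members, not the same 35 that had a peak. They gave 56 windows with a median of 25 CpG dinucleotides, against 14 over all promoters. In the 32 windows of 17 members with a promoter peak the E2F letters occurred in 1, that of HLTF. In the 24 windows of 18 members without a promoter peak they occurred in 5. Some genes have more than 1 window, and differences between these groups were not tested. The median number of CpGs was 22 in the windows of members with a promoter peak and 30 in those without. The GC box GGGCGG was in 71.4% of the members' windows and in 45.0% of all windows. These matches describe letters in the windows and show no binding site.

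HLTF encodes a SNF2-family translocase with a ubiquitin ligase domain that remodels stalled replication forks and ubiquitinates PCNA. Its promoter peak (ENSG00000071794, chromosome 3, 148804084 to 148804859) held 54 tags (95% exact Poisson interval 40.6 to 70.5), with a fold enrichment of 28.3, −log10 p of 32.6 and an FDR of 0. The interval covers counting error only. The peak overlapped the start of transcript ENST00000465259 and its summit lay about 202 bp upstream of that start. By fold enrichment it ranked 33rd of 67071 peaks, 21st of 13764 promoter peaks and 16th of 3668 peaks overlapping a start. The other 2 HLTF peaks were intronic and weak, with 9 and 10 tags, 6.18-fold each and FDRs of 46.0% and 47.2%. Most of the 73 HLTF tags thus lay at the start of the gene.

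Among the 45 members, 2 SWI/SNF genes beside HLTF had a peak within an FDR limit of 5%, each of them intronic. SMARCB1 encodes a core subunit of every SWI/SNF form except the non-canonical one. Its single peak lay in intron 5 of 8 (ENSG00000099956, chromosome 22, 24153680 to 24154290), with 23 tags (14.6 to 34.5), 14.13-fold and an FDR of 2.91%. Among 24930 intron peaks it ranked 10th by fold enrichment and 1301st by tags. ARID1A encodes the large DNA-binding subunit of canonical BAF. Its single peak lay in intron 1 of 19 (ENSG00000117713, chromosome 1, 27049370 to 27050854), 3345 bp from the nearest listed start. This peak was 1485 bp wide with 44 tags (32.0 to 59.1), 6.61-fold and an FDR of 2.75%, and it ranked 85th by tags and 6590th by fold among intron peaks. The SMARCB1 peak, 611 bp wide, was thus high over its background, and the ARID1A peak was wide and rich in tags at an ordinary fold.

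At this FDR limit 3 of 45 members had a peak (6.67%, 95% exact Clopper-Pearson interval 1.40 to 18.3), where 3.01% of all 20037 protein-coding genes did. A promoter peak at the same limit was found at 1 of 45 members (2.22%), HLTF, against 2.47% of protein-coding genes. By peak, 3 of 109 (2.75%, 0.571 to 7.83) reached the limit, where 1.24% of all peaks, 4.29% of all promoter peaks and 0.325% of all intron peaks did. By class the members had 1 of 34 promoter peaks (2.94%, 0.0744 to 15.3) and 2 of 50 intron peaks (4.0%, 0.488 to 13.7) at the limit. The intervals hold the background in each case but the intron one, which rests on the SMARCB1 and ARID1A peaks. The intron interval treats peaks as independent, though many of the 50 share a gene. The genes were also chosen with earlier results known, so it is no test of the difference.

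**Figure D1:**
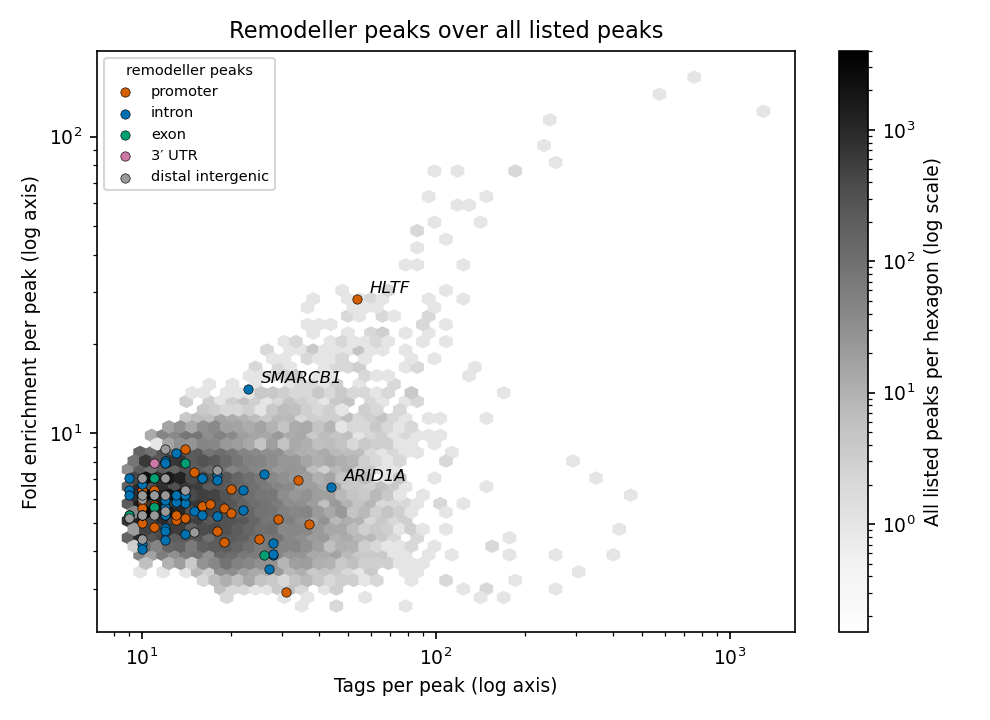
Tags per peak (x, log axis) against fold enrichment per peak (y, log axis) for the 109 remodeller peaks, coloured by annotation class, over all 67071 listed peaks in grey hexagons. HLTF (54 tags, 28.3-fold), SMARCB1 (23 tags, 14.13-fold) and ARID1A (44 tags, 6.61-fold) are named, and most other remodeller peaks lie in the dense low corner.

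Peaks of remodeller genes were otherwise of ordinary height for this list. Their median fold enrichment was 5.85 (interquartile range 5.30 to 6.47), against 5.95 (5.28 to 6.85) over all peaks, and both sets had a median of 12 tags (10 to 16). The FDR was above 40% for 76.1% of the remodeller peaks and 70.3% of all peaks. In promoters the medians were 5.63-fold and 13 tags at remodeller genes and 5.92-fold and 14 tags over the list, and in introns 6.18-fold and 12 tags against 5.95-fold and 12 tags. Without HLTF the median of the members' promoter peaks was 5.60-fold. By family the medians ran from 5.66-fold for the CHD genes and 5.69 for the ISWI genes to 6.18 for SWI/SNF, INO80-family and other SNF2-like genes. The peaks of largest fold in the families were SMARCB1 in SWI/SNF, an intronic BAZ2B peak (8.08) in ISWI, the CHD9 promoter peak (8.83) in CHD, an intronic INO80 peak (7.06) in the INO80 family and HLTF in the last group.

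**Figure D2:**
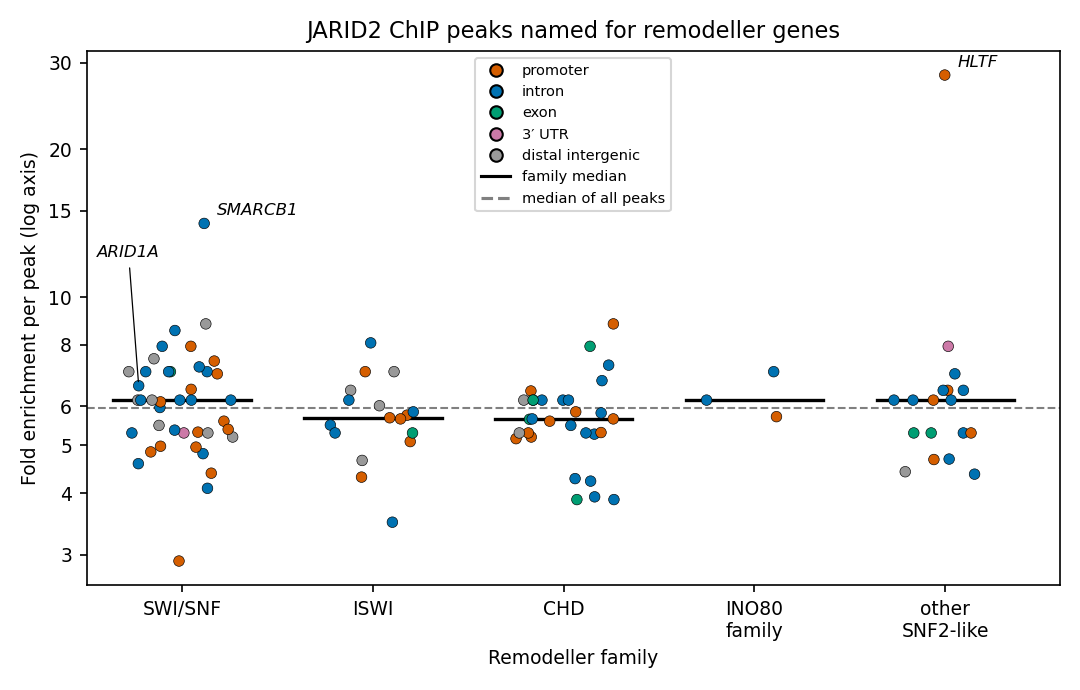
Fold enrichment of each of the 109 remodeller peaks (y, log axis) by family (x), coloured by annotation class, with the family median as a black bar and the median of all peaks (5.95) as a dashed line. Family medians lie between 5.66 and 6.18, and HLTF at 28.3 and SMARCB1 at 14.13 stand above the rest.

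A larger share of remodeller genes than of protein-coding genes was given a weak promoter peak. Of the 45 members, 25 (55.6%, 40 to 70.4) had a promoter peak, meaning one that the annotation puts at most 3 kb from a start, where 33.1% of protein-coding genes did. A peak of any class was given to 35 (77.8%, 62.9 to 88.8), where 56.3% of protein-coding genes had one. Among genes with any peak, a promoter peak was found at 25 of 35 members, against 58.8%. The members have more annotated transcripts, with a median of 7 RefSeq transcripts against 4 for all protein-coding genes. Of the 25 members with at least 7 transcripts, 14 (56.0%, 34.9 to 75.6) had a promoter peak, where 42.8% of protein-coding genes with as many did. Counting peaks within 1 kb of a start gave 18 members (40%) against 22.3%, and counting peaks that overlap a start gave 12 (26.7%) against 13.8%. With stronger peaks the shares with a promoter peak came near the background. When the 25% of peaks with the largest fold were kept, 6 members (13.3%) had a promoter peak, against 11.2%, and at −log10 p of at least 5 it was 4 members (8.89%) against 9.89%. An FDR limit of 10% left 1 member (2.22%) against 3.39%. For a peak of any class the members' shares stayed above the background at each of these limits, with 16 members (35.6%, 21.9 to 51.2) against 25.7%, 12 members (26.7%, 14.6 to 41.9) against 18.3% and 3 members (6.67%, 1.40 to 18.3) against 4.43%, and each interval holds the background. The part of transcript number and gene length in these counts was not tested further.

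**Figure D3:**
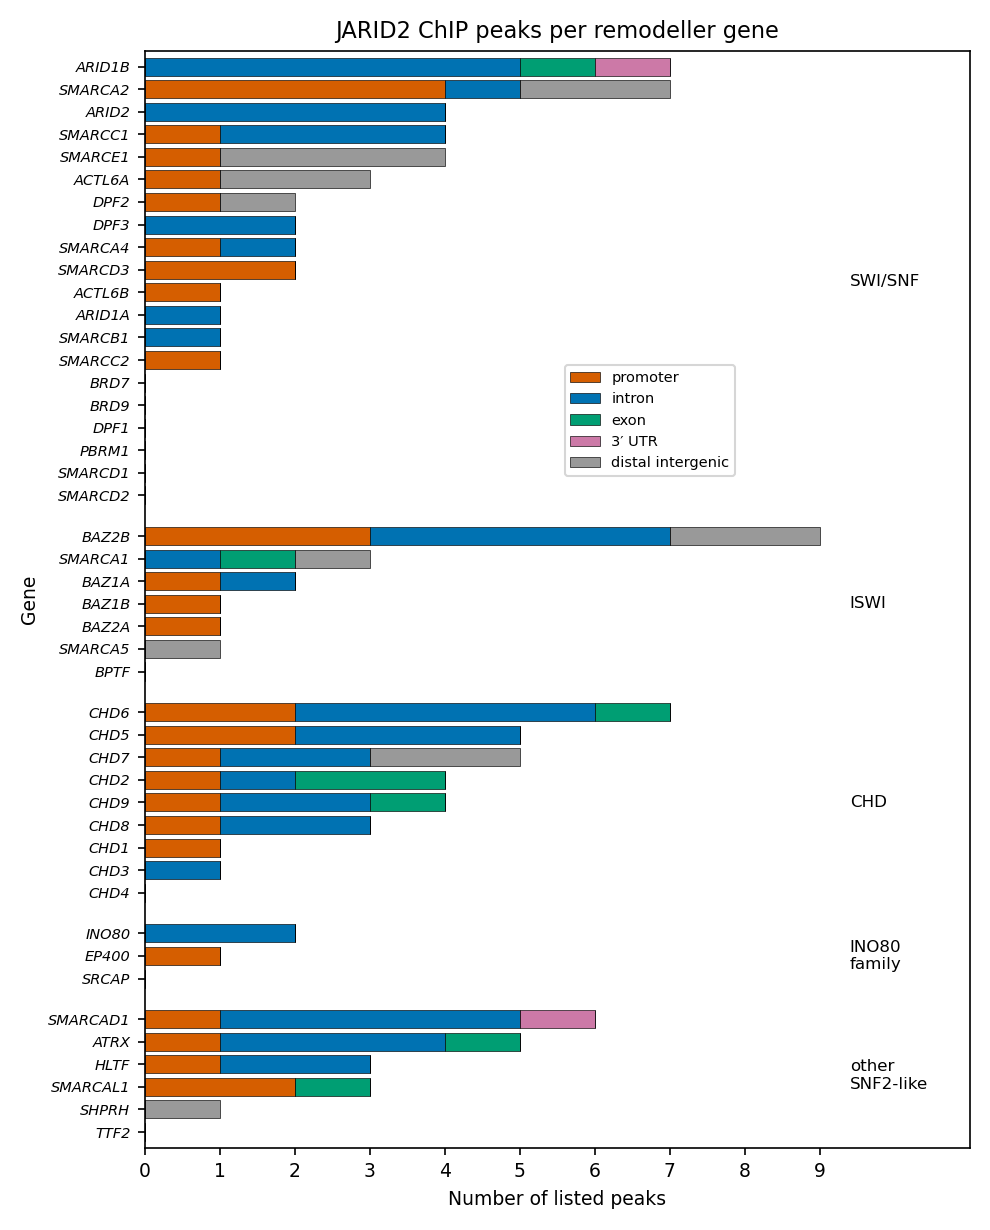
Number of listed peaks (x) of each of the 45 remodeller genes (y), grouped by family and stacked by annotation class. BAZ2B has 9 peaks, ARID1B, SMARCA2 and CHD6 have 7 each, and 10 genes have none.

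The promoter and intron shares of the members' peaks were close to those of peaks at protein-coding genes in general. The exon share was higher, on 8 weak peaks. Promoters held 34 of the 109 peaks (31.2%, 22.7 to 40.8), against 29.6% of the 30368 peaks at protein-coding genes and 20.5% of all peaks. Introns held 50 (45.9%, 36.3 to 55.7) against 43.7% and 37.2%, and distal intergenic sequence 15 (13.8%, 7.91 to 21.7) against 19.3% and 36.6%. Exons held 8 peaks (7.34%, 3.22 to 14.0) against 3.0% and 2.23%. The interval begins just above the 3.0%. It treats peaks as independent, though many of the 109 share a gene, so it is no test of the difference. The exon peaks were 2 at CHD2 and 1 each at CHD6, CHD9, SMARCA1, ARID1B, ATRX and SMARCAL1. Their folds ran from 3.88 to 7.95 and their FDRs from 43.9% to 48.0%. The remaining 2 peaks lay in 3′ UTRs of ARID1B and SMARCAD1. No peak of a member was of the 5′ UTR or downstream class, which for 109 peaks allows a share of up to 3.33% (exact Clopper-Pearson). These classes held 0.349% and 1.63% of the peaks at protein-coding genes and 0.216% and 1.71% of all peaks, all below that bound. Of the 34 promoter peaks, 14 overlapped a start, and their summits lay between 417 bp upstream and 833 bp downstream of it, with 7 upstream.

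**Figure D4:**
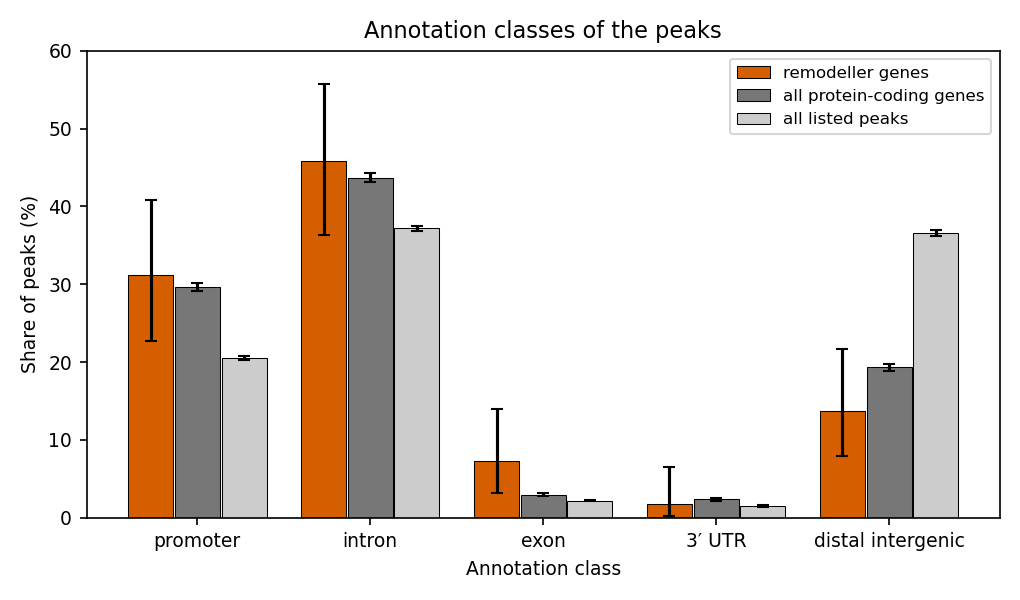
Share of peaks (y, %) in each annotation class (x) for the 109 peaks of remodeller genes, the 30368 peaks of all protein-coding genes and all 67071 peaks, with 95% exact Clopper-Pearson intervals as error bars. Promoters hold 31.2%, 29.6% and 20.5%, and distal intergenic sequence 13.8%, 19.3% and 36.6%.

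SMARCA4 and SMARCA2, which encode the alternative SWI/SNF ATPases, had promoter peaks with FDRs from 22.9% upwards. SMARCA4 had 2 peaks, 1 just upstream of its start with 25 tags, 4.39-fold and an FDR of 37.9%, and 1 in an intron with 12 tags and 5.30-fold. SMARCA2 had 7 peaks with 104 tags in sum, 4 of them of the promoter class. The highest of those 4 overlapped the start of the short transcript ENST00000452193, deep inside the gene, with 20 tags, 6.50-fold and an FDR of 22.9%. A neighbouring peak over another internal start held 31 tags in 1278 bp at 2.91-fold, the lowest fold of any member peak. SMARCA2 promoter peaks thus lay at an outer start and at internal ones, and SMARCA4 had its promoter peak at the outermost listed start.

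Of the core subunit genes, SMARCC1, SMARCC2, SMARCE1 and SMARCD3 had promoter peaks, and SMARCB1, SMARCD1 and SMARCD2 did not. The scaffold gene SMARCC1 had a peak over its start (20 tags, 5.39-fold, FDR 34.1%) and 3 intronic peaks, and its paralogue SMARCC2 had 1 promoter peak (11 tags, 4.85-fold, FDR 47.8%). SMARCE1, which encodes an HMG-domain subunit, had a peak of 1355 bp over its start (chromosome 17, 38803638 to 38804992) with 34 tags, 6.99-fold and an FDR of 28.7%. Its 3 other peaks were distal and had 10 to 12 tags. SMARCD3, the heart and muscle member of its subunit group, had 2 promoter peaks. The first held 37 tags at 4.96-fold over an internal start and the second 10 tags at 6.13-fold near the outermost start, with FDRs of 41.3% and 45.5%. No peak was given to its paralogues SMARCD1 and SMARCD2. The actin-related genes ACTL6A and ACTL6B, the dividing-cell and neuronal forms, had promoter peaks of 7.42-fold with 15 tags and 7.95-fold with 12 tags, at FDRs of 45.7% and 44.5%. The ACTL6A peak lay over an internal start, 10354 bp inside the outermost listed one.

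Genes of subunits that set the SWI/SNF form were mostly without promoter peaks. Among ARID1A, ARID1B, ARID2, PBRM1, BRD7 and BRD9, 0 of 6 had one, where 33.1% of protein-coding genes did. With 6 genes these shares cannot be told apart. ARID1B, the alternative to ARID1A in canonical BAF, had 7 peaks with 9 to 14 tags, 5 of them in introns, between 5.30- and 8.56-fold with FDRs from 37.2% upwards. ARID2, a PBAF subunit, had 4 intronic peaks between 4.09- and 6.18-fold. PBRM1 and BRD7, also of PBAF, and BRD9, of the non-canonical form, had no row. DPF2, a histone-reading subunit, had a promoter peak of 5.32-fold with 10 tags and 1 distal peak, DPF3 had 2 intronic peaks and DPF1 had none. Counting all 20 SWI/SNF members, 14 had a peak and 9 a promoter peak (45.0% against the 33.1% of protein-coding genes).

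CHD genes, which encode chromodomain helicases, had promoter peaks at 7 of 9 members (77.8%), against the 33.1% of protein-coding genes. CHD9 had the highest at 8.83-fold, with 14 tags over its start (chromosome 16, 53088699 to 53089389) and an FDR of 43.9%. The promoter peaks of largest fold at CHD7 (6.45-fold, 10 tags), CHD1 (5.85, 10 tags), CHD5 (5.66, 12 tags), CHD6 (5.60, 19 tags), CHD8 (5.31, 12 tags) and CHD2 (5.20, 14 tags) had FDRs between 41.4% and 48.2%. A second CHD6 promoter peak, over an internal start, held 29 tags at 5.16-fold and had the lowest FDR of the CHD promoter peaks, 36.6%. The CHD peak of lowest FDR was an intronic CHD5 peak with 26 tags, 7.28-fold and 15.8%. CHD4, the main NuRD ATPase in most cells, had no peak. CHD3, its paralogue, had 1 intronic peak of 5.49-fold whose class names another gene.

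The 7 CHD6 peaks were rich in tags and of low fold, and all but 1 were wider than the median peak. They held 18 to 29 tags over 484 to 1075 bp, at 3.88- to 5.60-fold, where the median peak of the list had 12 tags in 510 bp at 5.95-fold. CHD6 lies on chromosome 20, whose 1736 peaks had a median of 14 tags, 546 bp and 5.76-fold. MDA-MB-231 is aneuploid, and copy number was not tested as a factor in these values.

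Among ISWI genes 4 of 7 (57.1%) had a promoter peak, against the 33.1% of protein-coding genes, all of them in the BAZ group of bromodomain partners. By their promoter peaks of largest fold, BAZ2A, of the nucleolar remodelling complex, had 7.06-fold with 11 tags, BAZ1B 5.76 with 17 tags, BAZ1A 5.69 with 16 tags and BAZ2B 5.66 with 11 tags. The FDRs of these peaks were between 37.2% and 48.0%. The BAZ1A and BAZ2B ones lay at internal starts, 10199 and 269099 bp inside the outermost listed start. The BAZ1B one lay at a transcript of 3924 bp, the only one listed for that gene. BAZ2B had the most peaks of any member, 9 with 123 tags in sum. The ATPase genes SMARCA5 and SMARCA1 had no promoter peak. SMARCA5 had 1 distal peak of 4.66-fold, SMARCA1 had 3 peaks between 5.30- and 6.18-fold, and BPTF, the NURF scaffold gene, had none.

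INO80-family ATPase genes had few peaks. EP400, the ATPase of the TIP60 complex, had 1 promoter peak of 5.72-fold with 11 tags and an FDR of 48.0%. INO80 had 2 intronic peaks of 6.18- and 7.06-fold with 11 and 12 tags, and SRCAP, which deposits H2A.Z, had no row.

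Of the other SNF2-like genes, HLTF, ATRX, SMARCAL1 and SMARCAD1 had promoter peaks. ATRX, which helps deposit the histone variant H3.3, had 6.47-fold with 11 tags over its start and an FDR of 46.2%, and 4 further peaks in its body. SMARCAL1, an annealing helicase that acts at stalled forks, had 2 promoter peaks at internal starts, of 5.30- and 6.18-fold with 13 and 10 tags. SMARCAD1 had 6 peaks between 4.37- and 7.95-fold, and its promoter peak, near an internal start, had 18 tags at 4.68-fold. SHPRH, a homologue of the same yeast Rad5 ligase as HLTF, had 1 distal peak of 4.42-fold with 10 tags, and TTF2, a transcription termination factor, had none.

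Internal starts carried part of the promoter class. The listed start lay more than 10 kb inside the outermost listed start of the gene for 13 of the members' 34 promoter peaks (38.2%), against 25.8% of the 8994 promoter peaks at protein-coding genes. Several of the 13 share a gene, at BAZ2B, SMARCA2 and SMARCAL1, and the difference was not tested. Starts that no peak was assigned to are not seen by this measure. Members were also longer in the list, with a median longest transcript of 44.0 kb, against 23.2 kb for protein-coding genes with a peak. They had a median of 3 peaks per gene against 2. Within the same length class, the 10 members up to 20 kb had a median of 1 peak against 1, the 9 members of 20 to 50 kb 2 against 2, and the 5 of 100 to 200 kb 4 against 4. The 7 members of 50 to 100 kb had 4 against 2 and the 4 longer ones 6 against 7. Length here is that of the longest transcript named at any of a gene's peaks. It can fall short of the whole gene, as at ARID1A with 3611 bp, and can grow with the number of peaks. The classes therefore do not match genes by their full length.

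A further 62 subunits and ATPases of the same complexes were listed from their known composition. Of these, 44 had a peak, where 56.3% of protein-coding genes did, and 24 (38.7%) a promoter peak, beside 33.1%. The median over their 92 peaks was 5.76-fold and 14 tags. The 5% FDR limit was met by 3 of these 92 peaks, each over a start, where 1.24% of all peaks and 4.29% of all promoter peaks met it. HDAC2, a deacetylase of NuRD, had 18.8-fold with 57 tags and an FDR of 0 (chromosome 6, 114291991 to 114293093). BCL7C, a SWI/SNF subunit gene, had 13.25-fold with 24 tags and an FDR of 2.6% (chromosome 16, 30905351 to 30905996), and CHRAC1, a histone-fold partner in ISWI complexes, had 8.50-fold with 46 tags and an FDR of 0.370%. Among the peaks over a start, RAD54B, a recombination translocase gene, followed at 8.30-fold (FDR 22.8%) and BTAF1, a TBP-displacing ATPase gene, at 7.88-fold (28.1%). Away from starts, the annealing helicase gene ZRANB3 had an intronic peak of 11.48-fold (FDR 23.7%) and the repair ATPase gene ERCC6 one of 7.41-fold (14.5%). By list, promoter peaks were found at 7 of 12 NuRD genes, 6 of 10 other SNF2-family ATPase genes, 7 of 25 INO80, SRCAP and TIP60 subunit genes, 3 of 11 SWI/SNF subunit genes and 1 of 4 ISWI partner genes.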

How the data were processed

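JARID2 ChIP was measured in 1 library. The submitters' processing notes name hg19, Bowtie 0.12.8, ChIPseeker, bcl2fastq, MACS and MACS2. How the caller was set and whether it used the input is not given here. The authors' tag counts are whole numbers without normalisation. Per the file headers, fold enrichment is a ratio, in linear units, and the FDR a percent. The header of the deposited score was unreadable. Its smallest value is 30, and it was taken to be 10 times −log10 p. Peak width, distances and transcript lengths are in bp, per the file headers.

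Peaks were matched by exact symbol. For the background, symbols were matched to 20037 protein-coding genes in RefSeq (GRCh38.p14) by symbol or a synonym belonging to 1 gene, and 11286 had a peak. Promoter sequences are from RefSeq. Intron numbers in the list run by coordinate, so on minus-strand genes they count from the 3′ end. Over intron peaks their rank correlated with distance from the start at Spearman's rho 0.625 on the plus strand (373 peaks) and −0.604 on the minus strand (640 peaks), so numbers are printed for plus-strand genes alone. Peak width, depth and antibody were not compared with another library. Intervals are 95% exact Poisson for tags and exact Clopper-Pearson for shares, and cover counting error only, since PCR copies are not independent molecules. The depth is unknown.

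The members, the further gene list and the rule for named genes were chosen with earlier results of these data known. Values are given for members with an FDR of at most 5% at any peak, the 12 with the largest promoter fold, the 5 with most peaks and the strongest peak of each family. Others were named to account for every member. Python 3.11.15, pandas 2.3.3 and SciPy 1.17.1 were used, and counting was checked on simulated data. Alternatives were FDR limits of 5% and 10%, −log10 p of at least 5, the top 25% by fold, a promoter reach of 1 kb, merging of peaks less than 1 kb apart, and genes with a peak as background. Peaks overlapping a start, naming by the annotation class, and leaving out HLTF or chromosome 20 were added after the data were examined.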

Additional observations from a re-analysis of the deposited data

How the results depend on the processing

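The stricter limits left few peaks. The number of members with a promoter peak was 25 and became 1 at an FDR of at most 5% and of at most 10%, 4 at −log10 p of at least 5, 6 in the top 25% by fold enrichment and 12 for peaks overlapping a start. Members with any peak numbered 35, and 3 at either FDR limit, 16 in the top 25% and 12 at −log10 p of at least 5. The median fold enrichment was 5.85 and rose under these limits, which keep high peaks by construction. It was 14.1 at either FDR limit (3 peaks) and 6.99 at −log10 p of at least 5 (13 peaks). In the top 25% it was 7.35 (24 peaks). Over all peaks the median was 9.71 at the 5% FDR limit and 8.83 at the 10% limit. At −log10 p of at least 5 it was 7.06 over all peaks, and in the top 25% 7.28. The median tag count was 12, and 44.0 at either FDR limit and 22.0 at −log10 p of at least 5. The promoter share of 31.2% became 21.1% within 1 kb, against 20.5% and 10.7% of all peaks. For peaks at protein-coding genes the promoter share was 29.6%, and their share within 1 kb was not counted. Merging left 102 peaks and the same 25 and 35 as counts of members, with a median of 5.91-fold. Naming exon and intron peaks by the gene of their class gave 34 members with a peak. Only members with a row entered this naming, so the number could not rise. Leaving out HLTF gave a median of 5.79-fold, and leaving out chromosome 20 a median of 12 tags. No paired analysis was possible because there is 1 ChIP library. A typical peak of 12 tags has a 95% Poisson interval of 6.20 to 20.96, so differences among most members' peaks are not detectable at this depth.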

Other observations

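The bodies of remodeller genes held further peaks that the list gives to other symbols. By annotation class 19 exon or intron peaks lay in 13 member genes but carried the name of a small RNA, pseudogene or non-coding transcript, such as RN7SL501P in ARID1A and SMARCA5-AS1 in SMARCA5. They had folds of 4.24 to 8.83 and FDRs of at least 25.2%. This search covered the 35 members with a row, whose Ensembl genes the list gives. A peak of the antisense gene HLTF-AS1 lay 2512 bp from the strong HLTF peak, on the side of the gene body, with 11 tags, 4.85-fold and an FDR of 47.1%.

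For the 10 members without a row, the protein-coding neighbours in RefSeq order were examined, since a shared promoter is given to 1 gene. Strand and the distance between starts were not checked, so none of these peaks is shown to lie at a shared promoter. NOP2, beside CHD4, had a peak over a start of 4.68-fold (FDR 31.1%), and TRIM45, beside TTF2, had one of 4.85-fold (FDR 35.0%). C17orf58, beside BPTF, CD101, beside TTF2, and SIPA1L3, beside DPF1, had promoter peaks of 6.79-, 7.95- and 5.0-fold that overlapped no start. The neighbours of SMARCD1, SMARCD2, PBRM1, BRD7, BRD9 and SRCAP had no promoter peak in the list.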
